A study of Homo sapiens with 9 samples.

Results

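The genes described here are the zinc finger genes of human chromosome 19 whose symbols start with ZNF. The gene table of GRCh38 placed 304 such genes on chromosome 19, and the array measured 234 of them. Each gene was represented by its brightest probe set, the one with the highest mean log2 intensity over the 9 arrays. A gene was kept where this probe set lay no dimmer than the array's own median on 2 or more of a group's 3 arrays, which left 150 members among 13352 genes in all. Of the 150, 144 were protein-coding, 3 were transcribed pseudogenes and 3 were long non-coding RNAs that carry a ZNF symbol, such as ZNF433-AS1. On all 9 arrays 98 members were at or above the median, and the other members passed through some arrays only. In 9 members TIG1A was the 1 group that passed, in 4 TIG1B and in 8 Control, and 129 passed in 2 or 3 groups. A member that passed through 1 group tends to be higher there by that choice. ZNF606 and ZNF547 lay just inside the limit and ZNF570 and ZNF527 just outside it, with intensities between 2.12 and 103.4 for ZNF570 and between 14.97 and 68.8 for ZNF527. Apart from this, the choice of genes used neither the direction nor the size of a difference between groups.

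The study compared stable clones of HCT116, a human colon cancer cell line, made with the GeneSwitch system, in which mifepristone switches on an introduced gene. TIG1A cells carried the inducible TIG1A isoform of TIG1 (RARRES1, a retinoic acid responsive gene), TIG1B cells carried the TIG1B isoform, and Control cells carried the plasmids without an inducible protein. All 3 groups carried the regulatory plasmid pSwitch and received 5 nM mifepristone for 24 h before total RNA was taken, so no untreated cells entered. Each group was 1 clone sampled 3 times, so the isoform and the clone that carried it cannot be told apart.

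C2H2 zinc finger proteins bind DNA through repeated fingers that each hold a zinc ion between a pair of cysteines and a pair of histidines. Many of the human members also carry a KRAB domain, which recruits the corepressor TRIM28 (KAP1) and, through it, the histone methyltransferase SETDB1 and heterochromatin proteins. They are best known for silencing transposable elements. The family grew by repeated local duplication, so that chromosome 19 carries large clusters of neighbouring zinc finger genes whose sequences resemble each other.

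The sequence in front of these genes had features that the choice by symbol and position did not use. RefSeq promoters of GRCh38.p14, from 250 bases before to 50 bases after the gene start, were found for 132 of the 150 members. The ETS core letters CCGGAAG, read on either strand, stood in 63 of the 132 (47.7%), compared with 10.7% of all 27305 promoters of the same length, 14.2% of those of protein-coding genes and 12.8% of those of other protein-coding genes of chromosome 19. Among 173 promoters of the ZNF genes kept on other chromosomes the share was 37.6%. The TATAAA letters were in 3.03% of the members, 12% of all promoters and 8.07% of those of other coding genes of chromosome 19. The GC box letters GGGCGG were in 66.7% of the members and 44.6% of all promoters, near the 65.9% of other coding genes of chromosome 19, and the YY1 letters AAGATGGCG were in 7 members (5.3%), in 1.85% of all promoters and in 4.14% of those of other coding genes of chromosome 19. A match says only that the letters are there.

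The short windows below show the ETS core (capitals) with the 10 bases on each side in named members, read on the strand that holds it. The first 5 genes belong to the most distal cluster, and ZNF585A and ZNF585B are duplicated neighbours. ZNF91 is one of the genes that rose in TIG1A cells. Other named members, not shown, held the core too, among them ZNF528, ZNF580 and ZNF787, which averaged lower in TIG1A than in Control cells.
ZNF134 (chr19:57614215-57614241): gaggaagataCCGGAAGtcccgcccag
ZNF264 (chr19:57191464-57191490): agcgagcaacCCGGAAGtcccgccccc
ZNF419 (chr19:57487723-57487749): aaacgagacgCCGGAAGtcccgcccat
ZNF547 (chr19:57363414-57363440): caagaggacgCCGGAAGtcccgccctc
ZNF805 (chr19:57240585-57240611): catccaaatgCCGGAAGtcccgcccca
ZNF585A (chr19:37172694-37172720): agaagtcggaCCGGAAGtggaagtggt
ZNF585B (chr19:37210517-37210543): agaagtcggaCCGGAAGtggaagtggt
ZNF91 (chr19:23395479-23395505): cagccacatcCCGGAAGccgccctgtc
The windows of ZNF585A and ZNF585B were identical. The first 5 windows shared a run of 15 bases, CCGGAAGTCCCGCCC, that was noticed on reading them. These windows were singled out by the letters after the core, so their sharing of the run follows from that choice. ZNF580 and ZNF787, named members of the same cluster, had windows of the core without this run. This run was in 7 of the 132 member promoters, 6 of them in the distal cluster, and in 28 (0.103%) of all promoters. Members with the ETS core had a median log2 fold change of 0.29 in TIG1A cells against Control and those without it 0.21, and in TIG1B cells the medians were -0.02 and 0.11.

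ZNF83 and ZNF468, genes of 1 cluster that both rose in TIG1A cells, had promoters identical at 238 of 310 aligned positions (76.8%), where other pairs among the 5 promoters aligned (these 2 genes, ZNF350, ZNF91 and ZNF526) reached 48.1 to 52.4%. Their windows are shown on the gene's own (minus) strand with GC boxes in capitals.
ZNF83 (chr19:52690447-52690746): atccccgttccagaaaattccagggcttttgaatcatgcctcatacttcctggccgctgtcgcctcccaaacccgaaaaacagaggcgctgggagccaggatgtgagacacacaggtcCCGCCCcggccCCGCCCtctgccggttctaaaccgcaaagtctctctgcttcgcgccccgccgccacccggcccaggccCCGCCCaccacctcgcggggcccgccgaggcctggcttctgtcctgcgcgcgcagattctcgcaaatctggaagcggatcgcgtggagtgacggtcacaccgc
ZNF468 (chr19:52857570-52857869): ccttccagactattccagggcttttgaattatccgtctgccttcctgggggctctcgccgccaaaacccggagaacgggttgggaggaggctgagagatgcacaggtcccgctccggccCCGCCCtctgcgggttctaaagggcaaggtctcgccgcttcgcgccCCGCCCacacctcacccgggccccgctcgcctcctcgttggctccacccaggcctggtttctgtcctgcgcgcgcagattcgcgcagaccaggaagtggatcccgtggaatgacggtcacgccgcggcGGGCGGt
Each held 3 GC box matches, and neither held the ETS core.

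Each array gave 54675 probe sets with a median intensity between 59.9 and 73.9, and the trimmed means lay within 500.07 and 500.08. RARRES1 averaged 47764 in TIG1A cells and 21742 in TIG1B cells, against 37.2 in Control cells. The epithelial markers EPCAM, KRT8 and KRT18 were bright on every array, while the colon factor CDX1 fell below the filter. CDH1, which encodes E-cadherin, gave 6961, 6023 and 6097 in TIG1A cells and 4790, 4890 and 4983 in TIG1B cells, against 4806, 4041 and 3850 in Control cells, and rose in TIG1A cells (log2 fold change 0.59, adjusted p = 0.0481). KRT8 lay below every Control array in TIG1A cells, without passing (log2 fold change -0.59, adjusted p = 0.0759). KRT20 lay above every Control array there, also without passing (adjusted p = 0.176). All its Control values were below the array medians, so the difference is given as at least 1.15-fold. Of the 4 fibroblast markers COL1A1 alone passed the filter and rose in TIG1A cells (log2 fold change 1.48, adjusted p = 0.0169), and the list summed to 1391 to 1761 in TIG1A cells and 959 to 1003 in TIG1B cells, against 540 to 867 in Control cells. COL3A1, DCN and PDGFRB were below the filter, as were PTPRC, CD14, CDH5 and VWF. The leukocyte marker CD3E and the endothelial marker PECAM1 passed the filter and lay below every Control array in TIG1A cells. Neither passed the test (adjusted p = 0.0761 and 0.0692). PECAM1 had a log2 fold change of -0.92. All TIG1A values of CD3E were below the array medians, so it is given as at least 1.06-fold lower. The leukocyte list summed to 52.0 to 58.1 in TIG1A cells and 86.2 to 145 in TIG1B cells, against 81.3 to 164 in Control cells, and the endothelial list to 92.8 to 141 in TIG1A cells and 122 to 178 in TIG1B cells, against 169 to 244 in Control cells. Whether the markers that moved had a part in the values below was not tested. In bulk RNA, fewer cells with a transcript and less of it per cell cannot be told apart.

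In TIG1A cells 8 of the 150 members (5.33%) passed limma's threshold against Control cells (adjusted p under 0.05), 6 higher and 2 lower, where 7.01% of all genes were called, 3.39% higher and 3.62% lower. The share called was therefore not above that of all genes. The levels nevertheless lay mostly on the upper side: 95 of the 150 had a positive log2 fold change, and the median was 0.21, beside -0.03 over all genes. Without the filter 128 of the 234 measured genes were positive, their median was 0.093, and limma called 0. In 34 members (22.7%) all 3 TIG1A values were above all 3 Control values, compared with 16.3% of all genes, and in 17 (11.3%) all were below, compared with 17.9%. Of the 34, ZNF345, ZNF613, ZNF137P, ZNF28 and ZNF818P were kept through TIG1A cells alone, so their place there is tied to the filter. Of the 17, ZNF333, ZNF577 and ZNF749 were kept through Control cells alone. At an unadjusted p under 0.05 the counts were 29 higher (19.3%) and 16 lower (10.7%), beside 13.2% and 14.5% of all genes. The 216 ZNF genes of other chromosomes had a median of 0.03, with 10 called higher and 4 lower. Of them 15.7% lay above all Control values and 11.6% below, so a low share below was not particular to chromosome 19. The 769 other genes of chromosome 19 had a median of -0.20, with 8 called higher and 69 lower. The count of 8 became 1, 3 and 9 without Control replicate 2, 3 and 1, 4, 1 and 2 without TIG1A replicate 1, 2 and 3, and 6, 2 and 2 without TIG1B replicate 1, 2 and 3, while the median stayed between 0.17 and 0.28. The difference between the median of the members and those of the other gene groups was not itself tested.

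**Figure D1:**
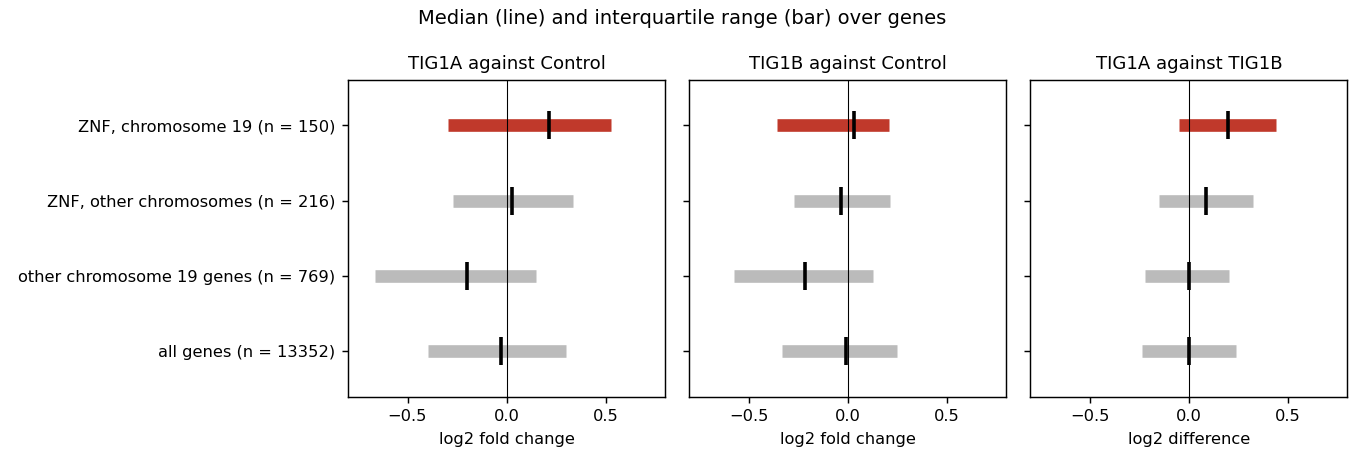
Median (black line) and interquartile range (bar) of the log2 fold change or log2 difference over the 150 zinc finger genes of chromosome 19 (red) and, in grey, 216 ZNF genes of other chromosomes, 769 other genes of chromosome 19 and all 13352 genes, in each comparison. The zinc finger genes of chromosome 19 have medians of 0.21, 0.03 and 0.20, and the other genes of the chromosome have -0.20, -0.21 and -0.0012.

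Of the 6 members that rose in TIG1A cells, 5 lie in 1 of the 9 clusters of the chromosome. It runs from ZNF175 to ZNF331 (chr19:51571283-53580269) and holds 25 of the 150 members. ZNF600 (chr19:52764164-52833645) gave intensities of 1611, 1389 and 1424 in TIG1A cells and 981, 885 and 911 in TIG1B cells, against 736, 716 and 683 in Control cells. The 3 groups did not overlap, and TIG1A was the highest. Its log2 fold change in TIG1A cells was 1.05 (SE 0.12, adjusted p = 0.00953), and this call held without any 1 of the 9 arrays (adjusted p between 0.0118 and 0.0416). Its only probe set is of the x_at type, in which some probes can match related transcripts, so that part of the signal may belong to paralogs.

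ZNF468 (chr19:52838010-52857619), close by, gave 1169, 1100 and 1183 in TIG1A cells and 846, 840 and 788 in TIG1B cells, against 472, 549 and 810 in Control cells. All TIG1A arrays were above the others, while Control replicate 3 lay among the TIG1B arrays. The log2 fold change in TIG1A cells was 0.95 (SE 0.20, adjusted p = 0.0369). ZNF83 (chr19:52612377-52690496) gave 1125, 879 and 911 in TIG1A cells and 641, 711 and 694 in TIG1B cells, against 490, 651 and 632 in Control cells (log2 fold change in TIG1A cells 0.72, SE 0.17, adjusted p = 0.0474). The TIG1A values again lay above both other groups, which overlapped each other. They were read by an s_at probe set, which can match several transcripts. A second, dimmer probe set of ZNF83 had a log2 fold change of 1.87 that did not pass (adjusted p = 0.260).

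The pseudogene ZNF137P (chr19:52596684-52600152) was dim, with 57.7, 99.4 and 130 in TIG1A cells and 66.7, 48.1 and 74.2 in TIG1B cells, against 31.6, 20.4 and 38.1 in Control cells. All Control values were below the array medians, so the rise in TIG1A cells is given as at least 1.27-fold (adjusted p = 0.0397). It passed the filter through TIG1A cells alone, the group in which it is high, so its place among the 6 rises is tied to how it was kept. ZNF350 (chr19:51964340-51986840), a KRAB protein also known as ZBRK1 that binds BRCA1, gave 184, 200 and 193 in TIG1A cells and 141, 102 and 79.5 in TIG1B cells, against 113, 76.3 and 101 in Control cells. Its TIG1A values were tightly grouped above the rest (log2 fold change 1.01, SE 0.24, adjusted p = 0.0485).

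The sixth rise was in another cluster. ZNF91 (chr19:23305004-23395471), a KRAB protein known for repressing SVA retrotransposons, gave 683, 706 and 1030 in TIG1A cells and 291, 422 and 494 in TIG1B cells, against 331, 357 and 435 in Control cells (log2 fold change in TIG1A cells 1.09, SE 0.25, adjusted p = 0.0471). Its other kept probe sets did not show this rise, with log2 fold changes of 0.15 (adjusted p = 0.769) and -1.25 (adjusted p = 0.478). The mean over its kept probe sets had a log2 fold change of -0.0031.

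Apart from ZNF600, the calls were sensitive to single arrays. In the fits without 1 of the 9 arrays ZNF526 (described below) passed in 4, ZNF468, ZNF350 and ZNF581 (also below) in 2, ZNF137P and ZNF91 in 1 and ZNF83 in 0. Their adjusted p in those fits reached at most 0.139 for ZNF350, 0.131 for ZNF91, 0.118 for ZNF137P, 0.115 for ZNF468, 0.110 for ZNF83, 0.0949 for ZNF581 and 0.0776 for ZNF526. ZNF468 passed without Control replicate 1 or 3, ZNF350 and ZNF581 without Control replicate 1 or TIG1B replicate 1, ZNF526 without Control replicate 1 or any TIG1B replicate, ZNF137P without TIG1A replicate 1 and ZNF91 without TIG1B replicate 1.

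**Figure D2:**
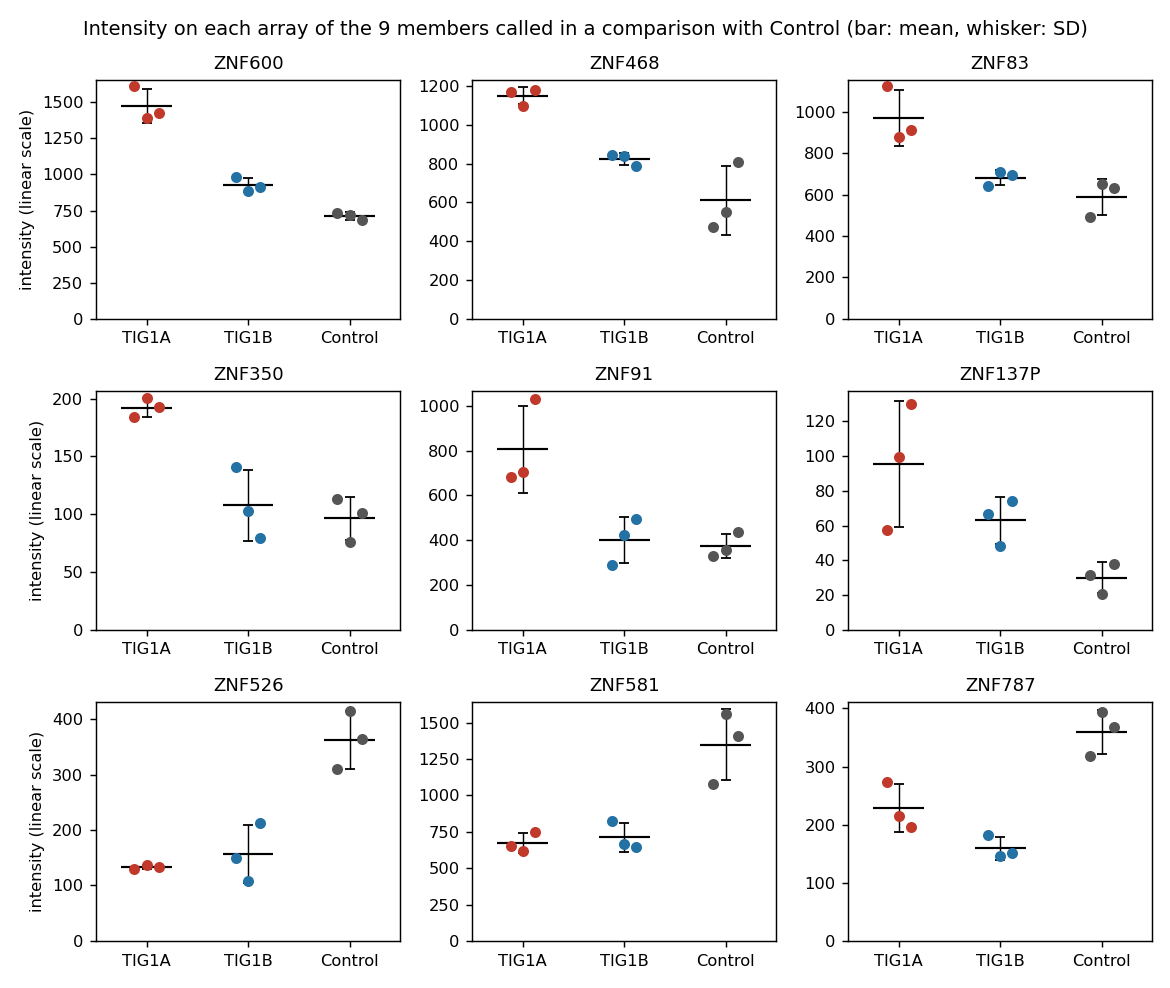
Intensity (linear scale) on each array of the 9 members called in TIG1A or TIG1B cells against Control, with TIG1A in red, TIG1B in blue and Control in grey; the bar is the mean and the whisker the SD (n = 3). ZNF600 is highest in TIG1A cells (mean 1475) and intermediate in TIG1B cells (926, Control 712), while ZNF526 and ZNF581 are low in both TIG1 lines.

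The cluster from ZNF175 to ZNF331 holds 49 ZNF genes in the gene table, of which 36 were measured and 25 were members. Against Control their median was 0.49 (log2 fold change) for TIG1A cells and -0.0075 for TIG1B cells, and 19 of the 25 were positive in TIG1A cells. Of the 25, ZNF613, ZNF432, ZNF137P, ZNF28 and ZNF818P were kept through TIG1A cells alone, and ZNF577 through Control cells alone. The median and the count of positive members are therefore partly tied to how members were kept. Within it a stretch of 10 members from ZNF701 to ZNF160 (chr19:52570287-53103422) was chosen after its values were seen. It had 9 positive log2 fold changes in TIG1A cells, 4 of them called. Of all genes 3.39% were called higher, but the count of a stretch picked this way cannot be set against that share. ZNF28 in this stretch gave 94.1, 76.9 and 126 in TIG1A cells and 6.26, 29.2 and 64.0 in TIG1B cells, against 3.91, 20.1 and 16.9 in Control cells, at least 1.35-fold higher in TIG1A cells, but did not pass (adjusted p = 0.0803). Like ZNF137P, which is 1 of the 4 calls of the stretch, it was kept through TIG1A cells alone. ZNF611 in the same stretch averaged 239 in TIG1A cells, against 232 in Control cells. On the other side, ZNF528 averaged lower in TIG1A cells, at 85.1, 51.7 and 78.9 against 216, 135 and 288 in Control cells, and did not pass (log2 fold change -1.53, adjusted p = 0.055). Of the 10 members of the stretch, 6 are measured by probe sets that can match related transcripts.

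**Figure D3:**
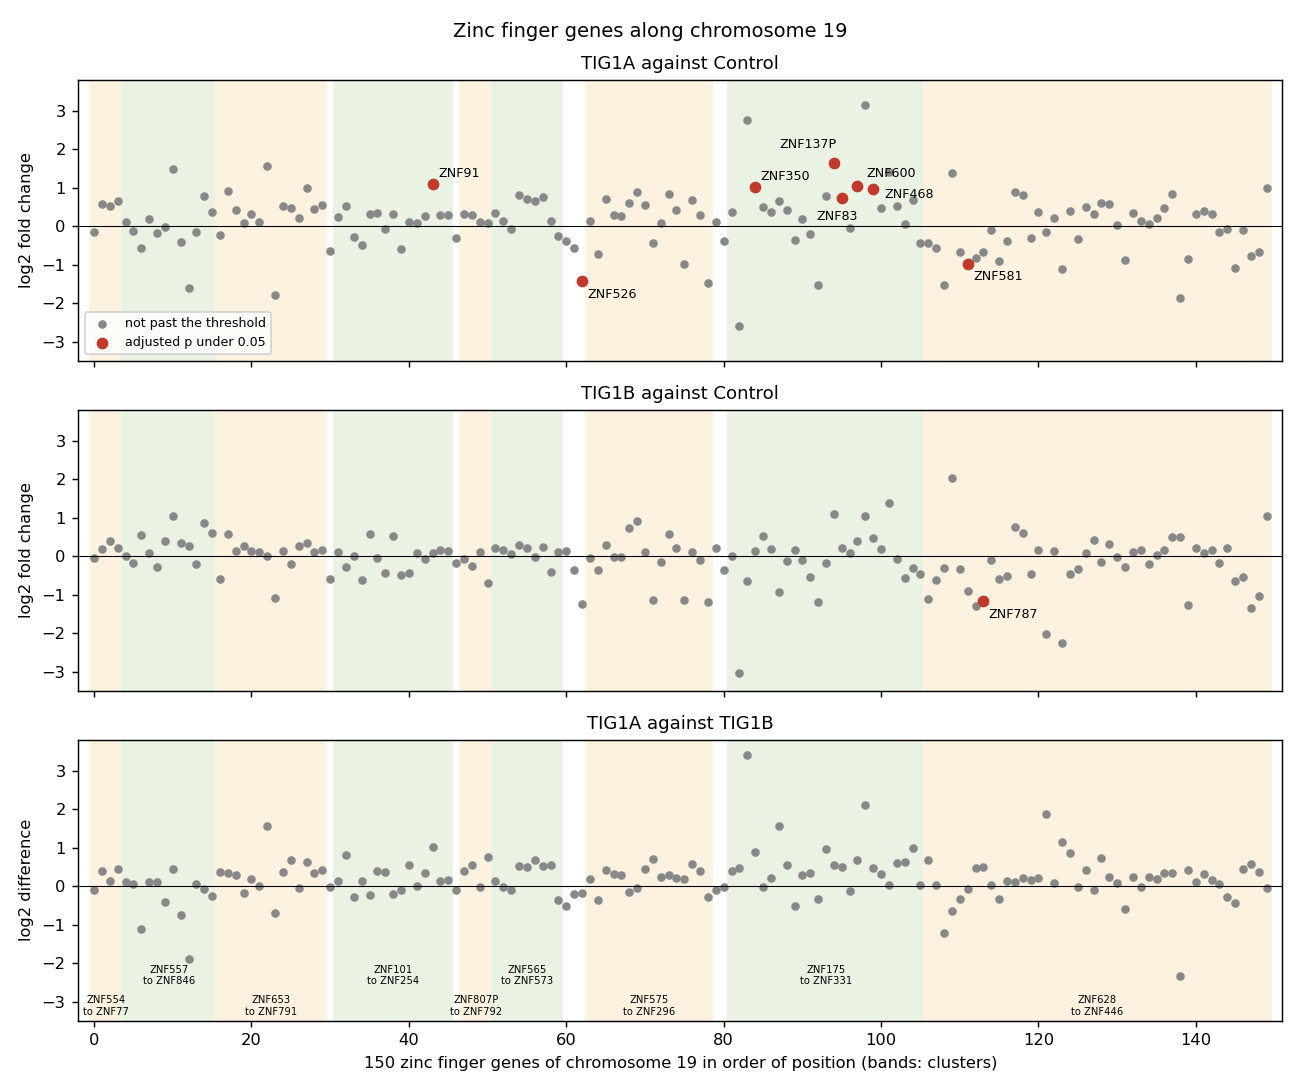
Log2 fold change or difference of each of the 150 members (points) in their order along chromosome 19 (x axis), with the 9 clusters as coloured bands, with each TIG1 line against Control in the upper panels and the TIG1 lines against each other in the lowest; red points have an adjusted p under 0.05. In TIG1A cells 5 of the 6 rises fall in the cluster from ZNF175 to ZNF331, which holds 25 of the 150 members. No member is red in the comparison of the TIG1 lines.

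A cluster was a run of at least 5 ZNF genes of the gene table with gaps of at most 1 Mb. In TIG1A cells 7 of the 9 clusters had a positive median against Control, between -0.08 and 0.55. The 14 members from ZNF653 to ZNF791 had a median of 0.44, with 12 positive and 6 above all Control values, and the 9 from ZNF565 to ZNF573 a median of 0.34, with 4 above all Control values, where 16.3% of all genes lay above. ZNF564 in the cluster from ZNF653 to ZNF791 gave 255, 261 and 266 in TIG1A cells and 144, 176 and 188 in TIG1B cells, against 150, 170 and 91.4 in Control cells, and missed the threshold in TIG1A cells (log2 fold change 0.98, adjusted p = 0.0540). In the cluster from ZNF575 to ZNF296 the 16 members had a median of 0.29 in TIG1A cells, and the 20 genes of other names in the same span had -0.48, with 0 called higher and 3 lower. This difference was not tested, and the other spans did not all run this way. From ZNF557 to ZNF846 the members had -0.07 and 30 other genes -0.02, and from ZNF101 to ZNF254 the members had 0.27 and 4 other genes 0.58. In the remaining spans that held other genes the members' median was the higher one. The other genes were few from ZNF653 to ZNF791 (3, median 0.04) and from ZNF565 to ZNF573 (2, median 0.12). From ZNF175 to ZNF331 the members had 0.49 and 2 other genes -0.36. In the most distal cluster, from ZNF628 to ZNF446, the 44 members had -0.08 and 13 other genes -0.32. The 7 members outside any cluster had a median of -0.39.

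The 2 members that fell in TIG1A cells came from these last groups. ZNF526 (chr19:42220312-42228201), outside the clusters, gave 130, 137 and 132 in TIG1A cells and 150, 109 and 212 in TIG1B cells, against 310, 415 and 365 in Control cells. Both TIG1 lines lay below every Control array, with log2 fold changes of -1.44 in TIG1A cells (SE 0.24, adjusted p = 0.0210) and -1.25 in TIG1B cells (adjusted p = 0.0505). ZNF581 (chr19:55635003-55645623) gave 649, 619 and 749 in TIG1A cells and 824, 663 and 646 in TIG1B cells, against 1080, 1556 and 1409 in Control cells. The log2 fold change in TIG1A cells was -0.99 (SE 0.18, adjusted p = 0.0279), and in TIG1B cells it was -0.92 (adjusted p = 0.0562). ZNF580 (chr19:55641002-55643470) lies inside the span of ZNF581 and gave 332, 355 and 359 in TIG1A cells and 209, 213 and 359 in TIG1B cells, against 711, 683 and 476 in Control cells, and passed in neither line (adjusted p = 0.094 and 0.0516). Both genes were read by s_at probe sets, which can match several transcripts.

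In TIG1B cells 1 member (0.667%) differed from Control cells, where 1.84% of all genes were called, 0.637% higher and 1.21% lower. ZNF787 (chr19:56087366-56121295) gave 182, 145 and 151 in TIG1B cells, against 318, 393 and 368 in Control cells, a log2 fold change of -1.18 (SE 0.18, adjusted p = 0.0298). In TIG1A cells it gave 274, 214 and 196, also below all Control values (log2 fold change -0.67, adjusted p = 0.0669). The count of 1 became 4, 0 and 0 without Control replicate 1, 2 and 3, 0 without TIG1A replicate 2 and without TIG1B replicate 1 or 2, and 2 without TIG1B replicate 3. ZNF787 passed without Control replicate 1, TIG1A replicate 1 or TIG1A replicate 3, and without the other arrays its adjusted p reached 0.107. At an unadjusted p under 0.05 there were 12 members higher (8%) and 14 lower (9.33%), beside 8.61% and 11.2% of all genes. In 14 members (9.33%) all TIG1B values were above Control, beside 12.2% of all genes, and in 18 (12%) all were below, beside 14.6%. The median of the log2 fold changes was 0.03, with 77 of 150 positive, so the upward shift of TIG1A cells had no counterpart of that size in TIG1B cells. Among members that did not pass, ZNF562 gave 501, 526 and 429 in TIG1B cells, against 305, 321 and 325 in Control cells (adjusted p = 0.113). ZNF93, a KRAB protein known for repressing LINE-1 elements, gave 203, 174 and 226 in TIG1B cells, against 270, 328 and 338 in Control cells (adjusted p = 0.0998). These comparisons with Control share the same 3 Control arrays and are not independent of each other.

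Set directly against TIG1B cells, TIG1A cells were higher in 102 of the 150 members, with a median log2 difference of 0.20, beside 0.0027 over all genes. No member passed an adjusted p of 0.05 in limma, where 0.584% of all genes did, and 18 members (12%) were higher and 1 (0.667%) was lower at an unadjusted p under 0.05, beside 7.68% and 7.32% of all genes. The methods' t-test on the same values also called 0 after Benjamini-Hochberg adjustment. In 31 members (20.7%) all TIG1A values were above all TIG1B values and in 3 (2%) all were below, while over all genes the shares were 14.2% and 14.2%. The 3 were ZNF780A, ZNF784 and ZNF8. The ZNF genes of other chromosomes had a median difference of 0.09, with 20.8% above and 9.26% below, and the other genes of chromosome 19 had -0.0012, with 8.19% above and 10.7% below. The members' median stayed between 0.18 and 0.22 without any 1 array. The smallest p belonged to ZNF600, with a log2 difference of 0.67 (SE 0.12, adjusted p = 0.0873). ZNF14 gave 448, 433 and 481 in TIG1A cells, against 215, 303 and 262 in TIG1B cells, with the Control arrays between 270 and 356 (log2 difference 0.82, adjusted p = 0.114). ZNF665 gave 604, 498 and 584 in TIG1A cells, against 337, 401 and 361 in TIG1B cells (adjusted p = 0.146), and its Control values of 482, 553 and 587 lay with those of TIG1A cells. In the cluster from ZNF175 to ZNF331, 21 of 25 members were higher in TIG1A cells, 11 with no overlap, where 14.2% of all genes lay above in this way, and 0 with all values below (median log2 difference 0.48). The 25 include ZNF613, ZNF432, ZNF137P, ZNF28 and ZNF818P, kept through TIG1A cells alone, so these values are partly tied to the filter.

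**Figure D4:**
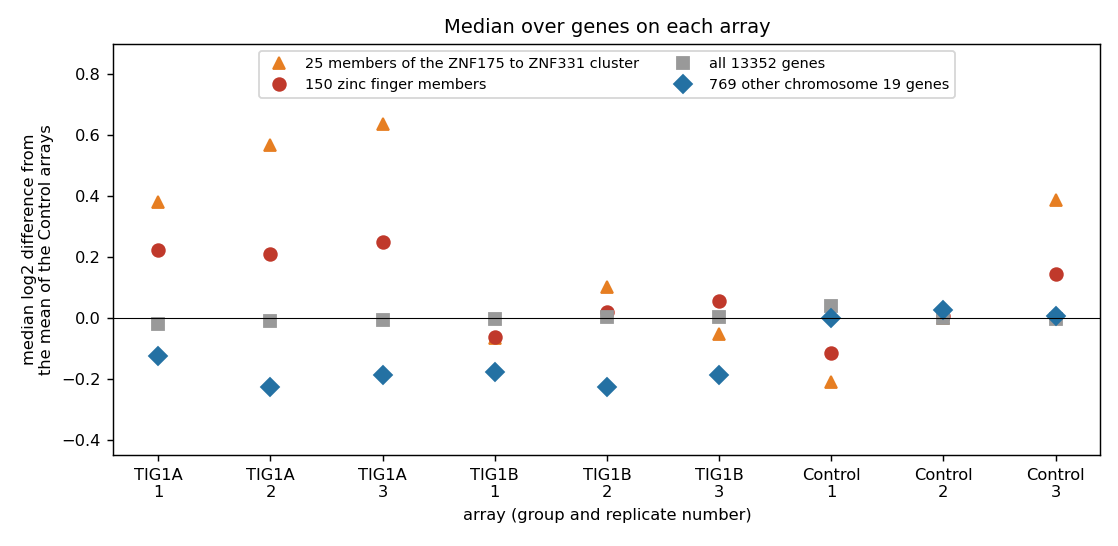
Median, over genes, of the log2 difference of each array from the mean of the 3 Control arrays, for the 25 members of the cluster from ZNF175 to ZNF331 (orange), all 150 members (red), all 13352 genes (grey) and 769 other chromosome 19 genes (blue). All members together lie at 0.21 to 0.25 on the TIG1A arrays and at -0.06 to 0.06 on the TIG1B arrays, while Control replicate 3 reaches 0.15, and 0.39 for the cluster.

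Array by array, the members' median difference from the Control mean was 0.22, 0.21 and 0.25 in TIG1A cells and -0.06, 0.02 and 0.06 in TIG1B cells, against -0.11, 0.01 and 0.15 in Control cells. By this median every TIG1A array lay above every other array, with Control replicate 3 the nearest. The number of members above the Control mean did not separate the groups in this way. It was 95, 87 and 94 on the TIG1A arrays and 72, 77 and 79 on the TIG1B arrays, against 63, 78 and 104 on the Control arrays. By this count Control replicate 3 lay above every TIG1A array. Over all genes the median differences from the Control mean lay between -0.02 and 0.04. For the 25 members of the cluster from ZNF175 to ZNF331 the values were 0.38, 0.57 and 0.64 in TIG1A cells and -0.06, 0.10 and -0.05 in TIG1B cells, against -0.21, -9.8e-05 and 0.39 in Control cells, so that here Control replicate 3 and TIG1A replicate 1 were at the same height. The other genes of chromosome 19 lay below 0 on all arrays of both TIG1 lines, at -0.23 to -0.13 in TIG1A cells and -0.23 to -0.18 in TIG1B cells, against 0.0015 to 0.029 in Control cells. With each array centred on its own median instead, the TIG1A and TIG1B medians against Control became 0.38 and 0.18 for the members, -0.04 and -0.07 for the other genes of chromosome 19, and 0.13 and 0.13 for all genes.

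The corepressors that KRAB proteins work with were measured from a list of 20 genes, all of which passed the filter. In TIG1A cells 0 of the 20 were called higher and 2 lower, where 3.39% and 3.62% of all genes were. The log2 fold changes had a median of -0.20. At an unadjusted p under 0.05 in limma, 1 was higher and 7 were lower, beside 13.2% and 14.5% of all genes. In TIG1B cells limma called 0, where 1.84% of all genes were called, and the median was -0.13. At an unadjusted p under 0.05, 0 were higher and 4 lower there, beside 8.61% and 11.2% of all genes. TRIM28, which lies on chromosome 19 and binds the KRAB domain, gave 4934, 5246 and 5261 in TIG1A cells and 6690, 6066 and 6972 in TIG1B cells, against 8889, 10031 and 12063 in Control cells. The 3 groups did not overlap, and the log2 fold changes were -0.99 in TIG1A cells (SE 0.15, adjusted p = 0.0152) and -0.64 in TIG1B cells (adjusted p = 0.0810). HDAC2, a histone deacetylase of the NuRD complex, gave 5076, 4449 and 4634 in TIG1A cells and 8474, 6996 and 7600 in TIG1B cells, against 7298, 8316 and 7797 in Control cells, and fell in TIG1A cells (log2 fold change -0.73, SE 0.13, adjusted p = 0.0278). SETDB1 gave 568, 563 and 551 in TIG1A cells and 575, 617 and 535 in TIG1B cells, against 757, 686 and 712 in Control cells, without passing (adjusted p = 0.118 and 0.213). The heterochromatin protein genes CBX1, CBX3 and CBX5 had log2 fold changes of -0.18, -0.09 and -0.22 in TIG1A cells and did not pass. Of 17 listed symbols of C2H2 genes of chromosome 19 (ZFP, ZIM, ZSCAN and ZBTB symbols among them) 15 were found among the measured genes and 9 were kept. None of the 9 was called in any comparison by limma at an adjusted p under 0.05. At an unadjusted p under 0.05, 0 of the 9 were higher and 2 lower in TIG1A cells, 0 higher and 1 lower in TIG1B cells, and 1 higher in TIG1A than in TIG1B cells.

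The upward shift in TIG1A cells was present in members of each kind of probe set. The 55 members on x_at or s_at probe sets had a median log2 fold change of 0.29 and the 95 on probe sets of the other types (at or a_at) 0.14. The 75 brighter members had a median of 0.29 and the 75 dimmer ones 0.10. Against TIG1B cells the medians were 0.19 for the brighter and 0.20 for the dimmer members. Where a member had several kept probe sets, which held for 50 genes, all of them pointed the same way in 26 in TIG1A cells and in 22 in TIG1B cells. The members with the highest intensities showed no difference past the threshold: ZNF146, a protein made almost only of fingers, lay between 3480 and 6956 on the TIG1A arrays, against 4076 to 5571 on the Control arrays (log2 fold change 0.12, adjusted p = 0.822), and ZNF121 and ZNF317 had log2 fold changes of -0.16 and -0.18 in TIG1A cells.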

How the data were processed

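Total RNA of 3 samples of each HCT116 clone was hybridised to Affymetrix HG-U133 Plus 2.0 arrays. The deposited values are linear intensities per probe set that the authors made with GCOS, with every array scaled to the same target, as the trimmed means were checked to show. No count or depth lies behind an array value, so the number of arrays limits the precision. Values under 1 were set to 1 and log2 was taken. Of 54675 probe sets, 62 control probe sets were left out, and 29977 lay at or above the array's median on at least 2 of 3 arrays of a group. They were fitted with limma 3.58.1 in R 4.3.3 over all 9 arrays, with Benjamini-Hochberg adjustment over all 29977 and a threshold of 0.05. The fit was tested on simulated data.

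Probe sets were named from the platform annotation: 41097 had 1 symbol, 1801 had several and were not used for a gene, and 41043 were matched to the RefSeq gene table. Where a group had no array at or above the median, a fold is a lower bound against the array medians. Named genes were the 10 members with the smallest p in a comparison (where fewer than 10 passed), the leading member of each cluster, the brightest members and those next to the filter. ZNF600 and ZNF468, which the study's tables hold, were also named. ZNF28, ZNF433-AS1, ZNF611, ZNF784 and ZNF8 were chosen after their values were seen. The members and gene lists were chosen with earlier results of these data known. The labels do not say whether same-numbered samples were collected together, and the main fit did not pair them. Protein features were not analysed here. Alternatives were another normalization, offset, filter, fit, probe-set choice and leaving out each array.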

Additional observations from a re-analysis of the deposited data

How the results depend on the processing

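The medians of the members in TIG1A cells, against Control and against TIG1B cells, stayed positive under every alternative run, while the counts of calls depended on the processing. The TIG1A count of 8 became 16 with an offset of 50, 0 without the filter (234 genes), 18 with the filter at the 75th percentile (49 members), 1 with the 6 arrays of the comparison alone, 2 with a replicate block, 15 with a trended, robust prior, 5 without x_at and s_at probe sets, and, by the methods' t-test, 1 after Benjamini-Hochberg and 40 at a p under 0.05. The TIG1B count of 1 became 4, 0, 6, 0, 0 and 4 under the first 6 of these, 0 and 18 by the methods' t-test and 4 with the mean over probe sets. Between the TIG1 lines the count of 0 became 5 with the 75th percentile, 2 with the trended, robust prior, 2 with the mean over probe sets and 19 by the methods' t-test at a p under 0.05. Median centring moved the TIG1A median to 0.38 and the TIG1B median to 0.18 (the array medians differed from Control by -0.16 and -0.15, and with them removed the medians over all probe sets were 0.12 and 0.12), and split the TIG1A calls into 10 higher and 2 lower. Quantile normalization moved the TIG1B median to 0.11. Without the filter the TIG1A and TIG1B medians were 0.093 and -0.056. Without 1 array the calls ranged from 1 to 9 in TIG1A cells and from 0 to 4 in TIG1B cells, and the TIG1B median from -0.063 to 0.082. Averaging kept probe sets reversed ZNF91, to -0.0031 against Control and -0.098 against TIG1B cells, because its probe sets differ. Of 992 repeats for named members, 817 left the call as it was, 81 gained it, 92 lost it and 2 changed sign. The 817 include results that were not called and stayed so, while all 92 losses fell on the called results. Of these, ZNF600 kept its call in 18 of 20 repeats, ZNF526 in 12 of 20 and ZNF83 in 6 of 20. The other called results kept it in 7 to 10 of 20 or 21. The cause of the moved counts was not tested. Same-numbered arrays correlated at -0.04 to 0.19 in their deviations from the group means. Between the TIG1 lines the values were 0.19, 0.05 and 0.06. Whether same-numbered samples were collected together is not known, so both TIG1A counts are given, 2 with the replicate block and 8 without it.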
